A study of Mus musculus with 10 samples.

Results

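Pre-iPS cells, a mouse line arrested part of the way from fibroblast to induced pluripotent stem (iPS) cell, were compared with the mouse embryonic fibroblasts (MEF) from which such lines are made. The comparison uses 4 of the 10 poly(A) RNA-sequencing libraries of the series, 2 of each kind. The 6 libraries of 3 iPS lines enter as values set beside them, and in the gene filter and the shared spread given below. Of these iPS lines, 1 is a control and 2 are clones labelled as Netrin-1 derived, which the study made with recombinant Netrin-1. Each iPS line was sequenced at passages 5 and 25. The pre-iPS libraries were made at passages 5 and 25 of 1 line, and the MEF libraries at passages 2 and 4. The MEF carry a green fluorescent protein reporter at *Oct4* (*Pou5f1*) and were grown in DMEM with 10% FCS. The labels give KSR+LIF medium for the iPS lines and none for the pre-iPS line, for which the study's methods name that medium with or without 2i. Medium and cell state therefore cannot be told apart, between pre-iPS and MEF or beside the iPS values. All libraries have the strain label of a cross between mf1 and 129. Oct4, Sox2, Klf4 and c-Myc (OSKM) retroviruses were used for the reprogramming, and the study describes the pre-iPS line as one in which the transgenes are not silenced and the reporter is off. Passages of 1 line are not independent clones, so each p given here compares these cultures and not lines derived separately. The study's methods name gelatin or irradiated MEF as the support for pre-iPS cultures without saying which was used here.

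Reprogramming by OSKM is known to run through an ordered set of changes. Fibroblasts lose their collagen-rich, mesenchymal programme and take on epithelial junctions, proliferation genes rise, and embryonic markers such as alkaline phosphatase appear before the core naive network of *Nanog*, *Esrrb* and *Dppa3* is switched on from the cell's own genes. Lines that stop on the way express the viral factors and epithelial genes while much of that network is silent.

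The deposited values are pseudo-counts, that is, read counts adjusted by edgeR as if all libraries had the same size. They could be turned back into whole reads, of which 41064759 and 42772655 fell on genes in pre-iPS at passages 5 and 25, and 47356484 and 52946856 in MEF at passages 2 and 4. A value under 1 in a MEF library stands for 0 reads there. Of 18901 listed genes, 17075 reached 10 in 2 or more of the 10 libraries and were tested with limma on log2(value + 1). A gene was called at a Benjamini-Hochberg adjusted p under 0.05 with a log2 fold change of at least 1 in size. On these terms 7383 genes (43.2%) differed between pre-iPS and MEF, of which 3820 (22.4%) were higher in pre-iPS and 3563 (20.9%) lower. The spread was unequal between the groups. Among genes with a mean value of at least 100, none of 12055 differed more than 2-fold between the MEF passages, while 214 of 12304 did between the pre-iPS passages. On the same log2 scale, pre-iPS and MEF libraries lay 299.9 ± 2.4 apart (Euclidean distance, mean ± SD of 4 pairs), beside 66.3 between the pre-iPS passages and 46.1 between the MEF passages. An exact permutation test of a single gene with 2 libraries against 2 cannot give a two-sided p under 0.333, so calls rest on the spread that limma shares across genes and lines.

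Large changes were common in both directions. Among the called genes, 919 had a log2 fold change of (value + 1) of at least 4 in favour of pre-iPS and 700 of at least 4 in favour of MEF, and at 8 the counts were 88 and 66. A switch from near absence was seen in 286 genes, with a value under 10 in both MEF and at least 100 in both pre-iPS libraries, and 176 of these were also at least 100 in all 6 iPS libraries. The reverse was seen in 183 genes, of which 2 were at least 100 in all 6 iPS libraries. The balance of calls depended on the scaling. The median log2 fold change of all tested genes was 0.06 as deposited, -0.19 when the 12 housekeeping genes set the scale (3155 higher, 4431 lower) and 0.48 when the recovered reads were scaled to the total on genes, a setting chosen after seeing the data (5427 higher, 2613 lower). None of the 12 housekeeping genes was called by limma as deposited, and edgeR and DESeq2 called none, although 7 were higher and 3 lower at an unadjusted p under 0.05 and 5 were called higher under quantile normalization and total-read scaling. Their median log2 fold change was 0.34.

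**Figure D1:**
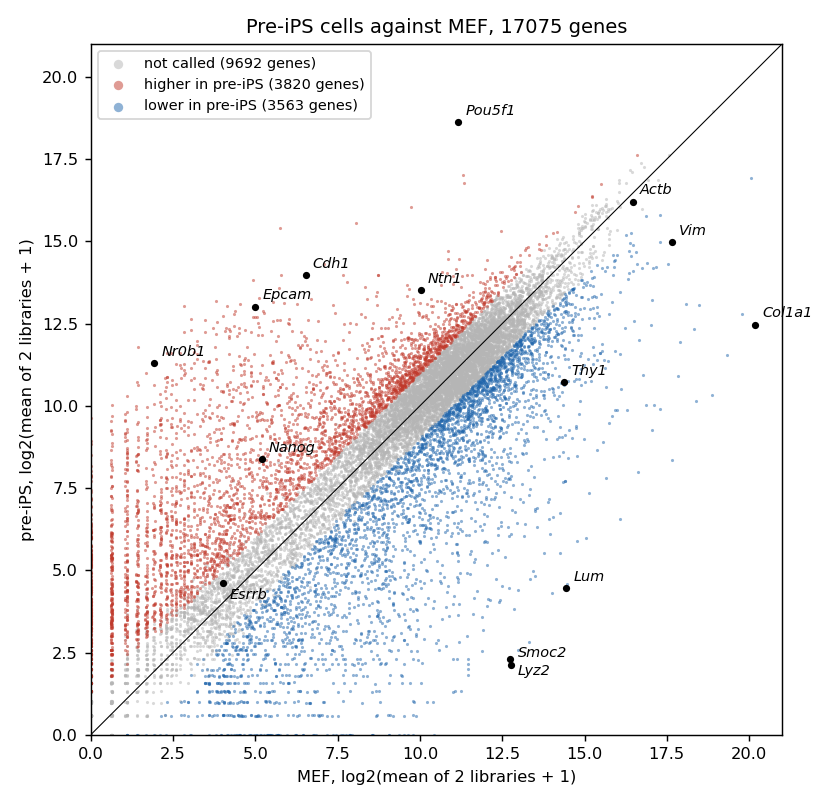
Mean value of the 2 pre-iPS libraries (vertical axis) against that of the 2 MEF libraries (horizontal axis), both as log2(mean + 1), with 1 point per tested gene and the line of equal values. Of 17075 genes, 3820 were called higher in pre-iPS (red) and 3563 lower (blue). *Col1a1*, *Lum* and *Smoc2* lie far below the line, *Cdh1*, *Epcam* and *Pou5f1* far above it, and *Esrrb* close to it.

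The promoters of some epithelial genes hold the E2-box CACCTG, read as CAGGTG on the opposite strand, which the mesenchymal repressors of the Snail and Zeb families are known to bind. The sequences below were picked after the values were seen, as 5 epithelial genes that rose and 1 collagen gene that fell. They are the 250 bases before a RefSeq start site on GRCm38.p6, the build of the mm10 counts, with the motif in capitals on either strand. For *Ap1m2* the start used lies inside the gene's RefSeq span, so that the last bases of its window are within the gene.
Epcam, chr17:87635729-87635978, plus strand: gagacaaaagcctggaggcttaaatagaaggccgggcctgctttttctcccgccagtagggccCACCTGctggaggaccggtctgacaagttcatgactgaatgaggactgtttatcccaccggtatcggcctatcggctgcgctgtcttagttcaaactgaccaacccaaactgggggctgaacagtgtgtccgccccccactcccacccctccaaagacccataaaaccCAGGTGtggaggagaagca
Cldn4, chr5:134946935-134947184, minus strand: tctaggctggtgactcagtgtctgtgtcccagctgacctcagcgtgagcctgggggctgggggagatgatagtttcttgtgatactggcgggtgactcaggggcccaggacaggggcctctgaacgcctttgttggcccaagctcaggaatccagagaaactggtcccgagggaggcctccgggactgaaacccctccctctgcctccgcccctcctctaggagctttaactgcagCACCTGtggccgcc
Rab25, chr3:88548280-88548529, minus strand: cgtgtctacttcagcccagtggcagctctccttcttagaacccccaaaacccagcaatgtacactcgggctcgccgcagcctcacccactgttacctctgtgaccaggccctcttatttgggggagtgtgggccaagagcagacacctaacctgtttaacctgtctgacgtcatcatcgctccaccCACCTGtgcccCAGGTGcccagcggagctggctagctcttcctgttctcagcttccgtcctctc
Ap1m2, chr9:21312334-21312583, minus strand: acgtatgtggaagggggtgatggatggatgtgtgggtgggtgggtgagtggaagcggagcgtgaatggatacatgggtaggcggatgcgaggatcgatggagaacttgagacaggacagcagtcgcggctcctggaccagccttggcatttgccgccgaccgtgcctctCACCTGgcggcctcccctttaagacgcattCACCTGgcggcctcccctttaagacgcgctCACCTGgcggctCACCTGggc
Lsr, chr7:30973470-30973719, minus strand: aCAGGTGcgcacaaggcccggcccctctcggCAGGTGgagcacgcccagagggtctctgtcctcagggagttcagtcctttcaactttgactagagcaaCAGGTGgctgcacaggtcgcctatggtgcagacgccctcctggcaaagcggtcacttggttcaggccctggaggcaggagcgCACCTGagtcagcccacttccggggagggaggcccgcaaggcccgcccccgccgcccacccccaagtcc
Col3a1, chr1:45311288-45311537, plus strand: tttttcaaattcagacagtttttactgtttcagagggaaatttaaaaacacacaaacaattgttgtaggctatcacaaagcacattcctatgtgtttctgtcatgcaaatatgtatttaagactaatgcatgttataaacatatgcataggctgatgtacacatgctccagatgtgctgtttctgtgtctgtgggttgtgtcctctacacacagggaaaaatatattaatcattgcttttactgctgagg
*Ap1m2* and *Lsr* hold 4 copies each, *Epcam* and *Rab25* 2 and *Cldn4* 1, while the *Col3a1* window has none and no CG pair. Of all 32851 promoters in the RefSeq table, 17.2% hold the motif in the same window. The genes shown were picked and are not a sample of their lists, so their copies cannot be set against that share. Sequences were found for 77.6% of the tested genes and 25 of the 44 epithelial genes, which is under 80%, so the share was not compared between lists, and a match is a description of the letters and not a bound site.

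Most fibroblast genes fell in pre-iPS. Of 42 surface and matrix genes, 36 were called lower and 4 higher, beside 20.9 and 22.4% of all tested genes. The list had a median log2 fold change of -4.19 beside 0.06 over all tested genes. Together its members took 13.1 and 12.7% of the reads in MEF but 0.775 and 0.782% in pre-iPS. *Col1a1* (chr11:94936224-94953042), a chain of type I collagen, had values of 1237800 and 1145590 in MEF and 6071 and 5254 in pre-iPS, a log2 fold change of -7.72 ± 0.23 (SE, n = 2 libraries a group, limma adjusted p = 3.45e-08). The groups were far apart, and pre-iPS cells held 0.475% of the MEF mean. For *Col3a1*, the fibrillar collagen whose promoter is printed above, MEF had 667718 and 648762 and pre-iPS 2977 and 2956. *Postn*, which encodes the matrix protein periostin, went from 99822 and 101494 to 299 and 208. *Thy1*, the surface antigen used to follow the loss of fibroblast identity, was less strongly reduced, with 21225 and 21082 in MEF and 1663 and 1710 in pre-iPS (12.5-fold lower). The cytoskeletal gene *Vim* fell by 2.67 ± 0.22 on the log2 scale, from 206328 and 204532 to 36820 and 28180. Among the 36 genes that fell, the level left in pre-iPS ran from 0.0944% of the MEF mean in *Lum*, which encodes the proteoglycan lumican, to 36.7% in the protease inhibitor *Timp1*, with a median of 3.18%, and it was under 1% in 10 genes.

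The exceptions on the cell surface were *Nt5e*, *Ly6a*, *Eng* and *Cd44*. *Nt5e*, which encodes the ectonucleotidase CD73, had 9143 and 11383 in pre-iPS and 795 and 752 in MEF, a 13.3-fold rise. *Cd44*, a hyaluronan receptor, had 17195 and 17519 against 8490 and 8579 (log2 fold change 1.02 ± 0.13, limma adjusted p = 9.59e-05), and this call and that of *Eng* were lost under housekeeping scaling. *Ly6a*, which encodes Sca-1, had 15881 and 10626 against 4004 and 4055, and its call was lost without pre-iPS passage 5 or without either MEF library. *Icam1* was not called, with 1965 and 1635 in pre-iPS and 1267 and 1219 in MEF (log2 fold change 0.53 ± 0.29).

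The transcription factors of the mesenchymal state moved with the matrix genes, with 25 of 30 called lower and 2 higher (median log2 fold change -2.34). Over all tested genes 20.9% were called lower and 22.4% higher. *Prrx1*, a homeobox factor of limb and skin mesenchyme, had 37548 and 38281 in MEF and 1722 and 1748 in pre-iPS, 21.8-fold lower. The repressors of epithelial genes fell by different amounts. *Snai2* fell by 4.26 ± 0.29 on the log2 scale, with 3771 and 3724 in MEF and 175 and 216 in pre-iPS, while *Twist1* was 12.6-fold lower, *Zeb2* 9.25-fold and *Zeb1* 7.22-fold, the last with 8264 and 8241 in MEF and 981 and 1304 in pre-iPS. For *Tcf21*, a factor of mesenchymal progenitors, pre-iPS had 0 reads in both libraries and MEF values of 108 and 107, at least 36.1-fold lower against 3 reads per library. The members that rose were *Meox1* (664 and 480.1 against 132 and 119) and *Meox2* (897 and 758 against 255 and 244), homeobox genes of the somite.

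**Figure D2:**
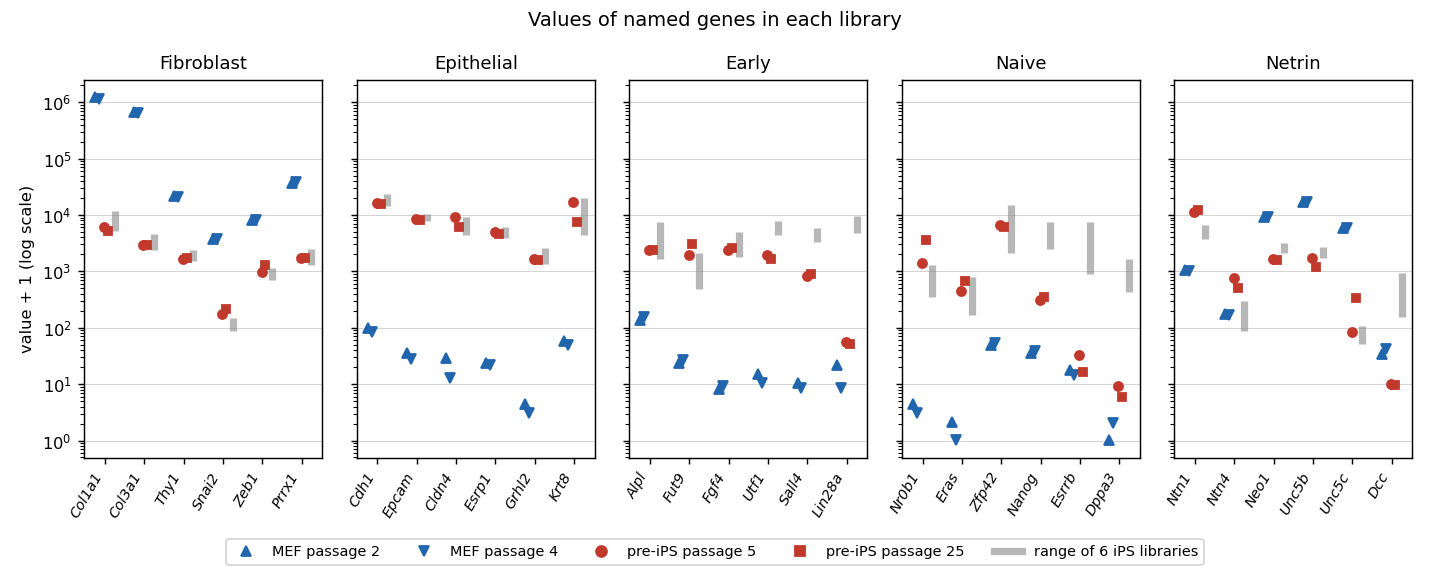
Values of 30 named genes in each library, as value + 1 on a log axis, in 5 groups. Blue triangles are MEF at passages 2 and 4, red circles and squares pre-iPS at passages 5 and 25, and grey bars the range of 6 iPS libraries. *Cdh1* to *Krt8* lie far above MEF in pre-iPS, whereas *Esrrb* and *Dppa3* lie near MEF and below every iPS library.

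Apart from the 4 viral factors, no list had a larger share of members called higher than the epithelial genes. Of 44 members 42 were called higher and 1 lower, beside 22.4 and 20.9% of all tested genes. The remaining 1 was not called, and the list had a median log2 fold change of 6.38. *Cdh1* (chr8:106603350-106670247), which encodes E-cadherin, had 98.8 and 83.6 in MEF and 16538 and 15883 in pre-iPS, 178-fold higher (log2 fold change 7.46 ± 0.15, limma adjusted p = 7.2e-09). Both pre-iPS values lay within the range of the iPS libraries, 14659 to 23290. The adhesion molecule gene *Epcam* had 35.1 and 26.5 in MEF and 8505 and 8052 in pre-iPS, a 269-fold rise. Tight junction genes rose as well. *Cldn4* went from 27.7 and 11.8 to 9202 and 5991, *Cldn3* from 4.77 and 5.28 to 3152 and 1831, and *Ocln* from 13.1 and 13.7 to 1139 and 861. Regulators of the epithelial state rose with them, with *Grhl2*, a transcription factor of epithelial junction genes, at 3.51 and 2.13 in MEF and 1623 and 1573 in pre-iPS, and *Esrp1*, a splicing factor of epithelial isoforms, at 22.5 and 21.1 and then 4944 and 4517. Of the further genes whose promoters are shown, *Rab25*, a small GTPase of epithelial vesicle traffic, was 358-fold higher, *Ap1m2*, an adaptor subunit for sorting to the basolateral membrane, 404-fold and the tricellular junction gene *Lsr* 18.3-fold.

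*Cdh3*, which encodes P-cadherin, went the other way, with 6595 and 6529 in MEF and 387 and 309 in pre-iPS, while *Cdh2*, the mesenchymal N-cadherin, fell from 7727 and 7940 to 929 and 1002. The keratins varied between the pre-iPS passages. *Krt8* had 16899 at passage 5 and 7597 at passage 25, beside 56.5 and 47.6 in MEF, and *Krt18* 1990 and 849.7 beside 54.1 and 46.5. *Krt7* was not called, since passage 5 (1565) lay above and passage 25 (389) below the MEF values of 898 and 901. Keratins of stratified epithelium differed more, with *Krt6a* at 1022 and then 149.8, *Krt16* at 861 and 176 and *Krt14* at 382 and 37.4.

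The reprogramming factors were at very high levels in pre-iPS, where reads of the viral copies cannot be separated from those of the cell's own genes. *Pou5f1* (chr17:35506032-35510777) had 2538 and 2047 in MEF and 392944 and 415437 in pre-iPS, 176-fold higher (log2 fold change 7.47 ± 0.13, limma adjusted p = 5.92e-09), and both pre-iPS values exceeded the highest of the iPS libraries, 110018. *Sox2* had 132 and 138 in MEF and 18529 and 21950 in pre-iPS. *Klf4* and *Myc*, which fibroblasts express themselves, started from 2657 and 2537 and from 2594 and 2481 and were 42.9-fold and 52.6-fold higher. The 4 genes together took 0.0142 and 0.0129% of the reads in MEF and 1.53 and 1.70% in pre-iPS. Reads of *Pou5f1* may also be shared with its pseudogenes.

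Early and embryonic markers largely rose, with 28 of 33 called higher and 1 lower (median log2 fold change 4.35). Over all tested genes the shares were 22.4% higher and 20.9% lower. *Alpl*, the alkaline phosphatase behind the classical stain, had 137 and 153 in MEF and 2345 and 2421 in pre-iPS, 16.5-fold higher. *Fut9*, the fucosyltransferase that makes the SSEA-1 epitope in mouse, had 22.6 and 25.3 and then 1932 and 2998. *Fgf4*, a growth factor gene bound by Oct4 and Sox2, went from 7.17 and 8.43 to 2409 and 2598, and *Tdh*, the threonine dehydrogenase of mouse pluripotent cells, from 10.8 and 13.7 to 4744 and 5782. For these 4 genes pre-iPS lay within or above the range of the iPS libraries. Others rose and still lay below that range. *Utf1* had 14.0 and 9.56 in MEF, 1924 and 1640 in pre-iPS and 4343 to 7739 in iPS, and *Sall4* had 9.40 and 7.42, 825 and 879.5 and 3281 to 5750. The RNA-binding *Lin28a* had 20.7 and 7.55 in MEF and 55.1 and 49.9 in pre-iPS, beside 4809 to 9516 in iPS, whereas its paralog *Lin28b* had 10.6 and 8.48 and then 1305 and 1853, beside 1560 to 2465. The member called lower was *Fut4*, with 105 and 117 in MEF and 55.1 and 47.0 in pre-iPS, and that call was lost without any 1 of the 4 libraries.

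Naive pluripotency genes split. Of 29 members 19 were called higher and 3 lower (median log2 fold change 2.63), beside 22.4 and 20.9% of all tested genes. *Nanog* (chr6:122707489-122714633), the homeobox factor of the naive core, had 34.5 and 36.9 in MEF and 311 and 349 in pre-iPS, 9.26-fold higher (log2 fold change 3.17 ± 0.20, limma adjusted p = 1.55e-06), while the iPS libraries ran from 2489 to 7441. *Esrrb*, a nuclear receptor of the same core, was not called, with 16.5 and 13.8 against 31.6 and 15.4 in pre-iPS and 900.2 to 7387 in iPS. *Dppa3*, a maternal and germline factor, had values of 8.16 and 4.80 in pre-iPS, and MEF had 1 read in all, a ratio of 11.5 with a 95% counting interval of 1.73 to 489.7. That call was lost with edgeR and under quantile normalization, and *Dppa3* and *Nanog* can share reads with pseudogenes. *Zscan4c*, of the 2-cell-like programme, was not called either, with 4.73 and 4.23 in MEF and 8.16 and 5.76 in pre-iPS against 892 to 5472 in iPS.

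Some other members of the naive list lay within the range of the iPS libraries or above it. *Nr0b1* (chrX:86191775-86195947), a nuclear receptor that lacks a DNA-binding domain, had 3.51 and 2.13 in MEF and 1393 and 3620 in pre-iPS, above each of the 6 iPS libraries (349 to 1290). *Zfp42*, which encodes Rex1, had 47.6 and 51.7 in MEF and 6512 and 6101 in pre-iPS, within the iPS range of 2109 to 15153. *Eras*, a constitutively active Ras of mouse embryonic stem cells, had 1 read in MEF and values of 453 and 686 in pre-iPS, a ratio of 1026 (95% counting interval 184 to 40575). *Tex19.1* rose from 5.91 and 5.29 to 3529 and 2759. Further members rose but stayed below every iPS library. Among them were *Dppa5a* (2551 and 3367 in pre-iPS against 8646 to 30113 in iPS), *Fbxo15* (1606 and 1723 against 2034 to 7211) and *Tfcp2l1* (773 and 797 against 847 to 3550). *Klf2* was not called and also lay below the iPS range (830.4 and 698 against 1061 to 5105). The genes that fell were *Il6st*, which encodes the gp130 chain of the LIF receptor, from 45196 and 45114 to 2844 and 3385 (14.5-fold), *Stat3*, its transcription factor, 2.21-fold, and *Tbx3*, 2.89-fold. The iPS libraries were also low in *Il6st*, at 3198 to 3773. For *Stat3* they ran from 4893 to 6118, under the pre-iPS values of 8113 and 8003. For *Tbx3* they ran from 365 to 1557, above the pre-iPS values of 263 and 240.0. The call of *Stat3* was lost under quantile normalization and when scaled to the total reads.

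Enzymes of DNA methylation rose in part. Beside 22.4% of all tested genes, 5 of the 9 enzymes were called higher. None was called lower by limma, edgeR or DESeq2, and 1 member (*Dnmt3a*) was lower at an unadjusted p under 0.05. *Dnmt3b*, a de novo methyltransferase, had 200.3 and 177 in MEF and 1487 and 1462 in pre-iPS, below the iPS range of 7406 to 14993, and its cofactor *Dnmt3l* was not called (15.2 and 11.7 against 29.6 and 17.3). *Uhrf1*, which guides the maintenance enzyme to replicated DNA, was 3.54-fold higher, *Tet1* 3.82-fold and *Tet2* 3.08-fold. *Tet3* was not called, at 4226 and 4169 in MEF and 3665 and 4210 in pre-iPS. Of 39 subunits of Polycomb and NuRD, repressive chromatin complexes, 11 were called higher and 2 lower, beside 22.4 and 20.9% of all tested genes, so that the share called higher was near the background. Under housekeeping scaling the counts were 6 and 8 and the list's median went from 0.07 to -0.20. *Phc1* and *Cbx7*, of the Polycomb complex PRC1, rose 7.75-fold and 7.54-fold, and *Jarid2*, of PRC2, rose 3.63-fold. The NuRD subunits that the study followed were not called, with *Mbd3* at 6398 and 5979 in MEF and 6093 and 5458 in pre-iPS, *Chd4* at a log2 fold change of 0.23 ± 0.07 and *Mta1* at 0.38 ± 0.14.

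DNA replication and mitosis genes rose modestly, in a count that the scaling moved. Of 50 members 26 were called higher (median log2 fold change 1.03), beside 22.4% of all tested genes. Housekeeping scaling called 3155 of all 17075 tested genes higher and total-read scaling 5427. Of the 50 members, 16 and 41 were called higher under these scalings. No member was called lower by limma, edgeR or DESeq2, and 1 member (*E2f1*) was lower at an unadjusted p under 0.05. *Cdt1*, a licensing factor, had 1049 and 1004 in MEF and 4001 and 4470 in pre-iPS, and *Mcm5*, of the replicative helicase, was 2.67-fold higher. *E2f2* stood apart from the list with 155 and 145 and then 2188 and 2006, while *E2f1* was not called, at 2404 and 2433 and then 1921 and 1875. *Mki67*, the proliferation marker, was not called (8527 and 8512 against 10104 and 14262). Of 28 inhibitors of cyclin-dependent kinases and p53 targets, 1 was called higher and 5 lower, beside 22.4 and 20.9% of all tested genes. The median of -0.22 turned positive under quantile normalization and total-read scaling. *Cdkn2a*, which encodes Ink4a and Arf, was not called, with 5733 and 5717 in MEF and 5434 and 4991 in pre-iPS. *Cdkn2b* fell from 4884 and 4755 to 1476 and 1137, *Cdkn1c*, which encodes p57, from 3109 and 3108 to 624 and 781, and the desmosomal p53 target *Perp* rose from 714 and 832 to 13702 and 12517. *Trp53* itself had a log2 fold change of 0.46 ± 0.08 and was not called.

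TGF-beta signals are known to hold fibroblasts in the mesenchymal state, while BMP signals are known to favour the passage to epithelium in reprogramming. Genes of both branches, taken as 1 list, were mostly lower, with 28 of 38 called lower and 3 higher (median log2 fold change -2.09). The shares over all tested genes were 20.9% lower and 22.4% higher. Among the ligands, *Tgfb3* went from 19586 and 19033 in MEF to 379.5 and 331 in pre-iPS, *Tgfb1* from 2958 and 2809 to 441 and 555 and *Bmp4* from 4891 and 4776 to 139.8 and 148. The receptor gene *Tgfbr2* was 13.3-fold lower, and *Id3*, a target of BMP signals, 65.6-fold. Of its relatives on the list, *Id2* was called lower (log2 fold change -3.07) and *Id1* was not called (0.65). *Bmp7* rose from 27.3 and 27.4 to 539 and 481, *Acvr2b*, an activin receptor, was 5.50-fold higher, and *Skil*, a repressor of Smad proteins, 2.36-fold higher, a call lost under housekeeping scaling.

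Netrin-1, the secreted guidance cue the study is about, and its relatives changed in both directions, and the receptors mostly fell. Of 14 genes 4 were called higher and 9 lower, beside 22.4 and 20.9% of all tested genes. *Ntn1* (chr11:68209364-68386826) had 1056 and 1016 in MEF and 11258 and 12274 in pre-iPS, 11.4-fold higher (log2 fold change 3.50 ± 0.20, limma adjusted p = 1.06e-06), and both pre-iPS values lay above the iPS range of 3727 to 6601. *Ntn4* rose from 177 and 167 to 751 and 507, *Ntn5* rose from 1.19 and 1.06 to 44.9 and 31.7, and *Ntn3* fell from 663 and 700.5 to 162 and 123. Of the receptors, *Unc5b* fell from 17057 and 16805 to 1722 and 1206, and *Neo1* from 9089 and 9322 to 1626 and 1572. *Dscam*, on the same list, went the other way, from 9.40 and 7.42 to 76.5 and 129 (12.2-fold higher). *Unc5c* went from 5955 and 5933 to 84.7 and 333, and rose more between the pre-iPS passages than any other gene with a pre-iPS mean of at least 100. *Dcc*, a dependence receptor, was low in both, with 33.5 and 41.1 in MEF and 9.18 and 8.64 in pre-iPS, while the iPS libraries had 152 to 924. The call of *Unc5d* (132 and 109 against 41.8 and 78.7) was lost under 6 alternatives, among them the omission of pre-iPS passage 5 or of either MEF library.

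**Figure D3:**
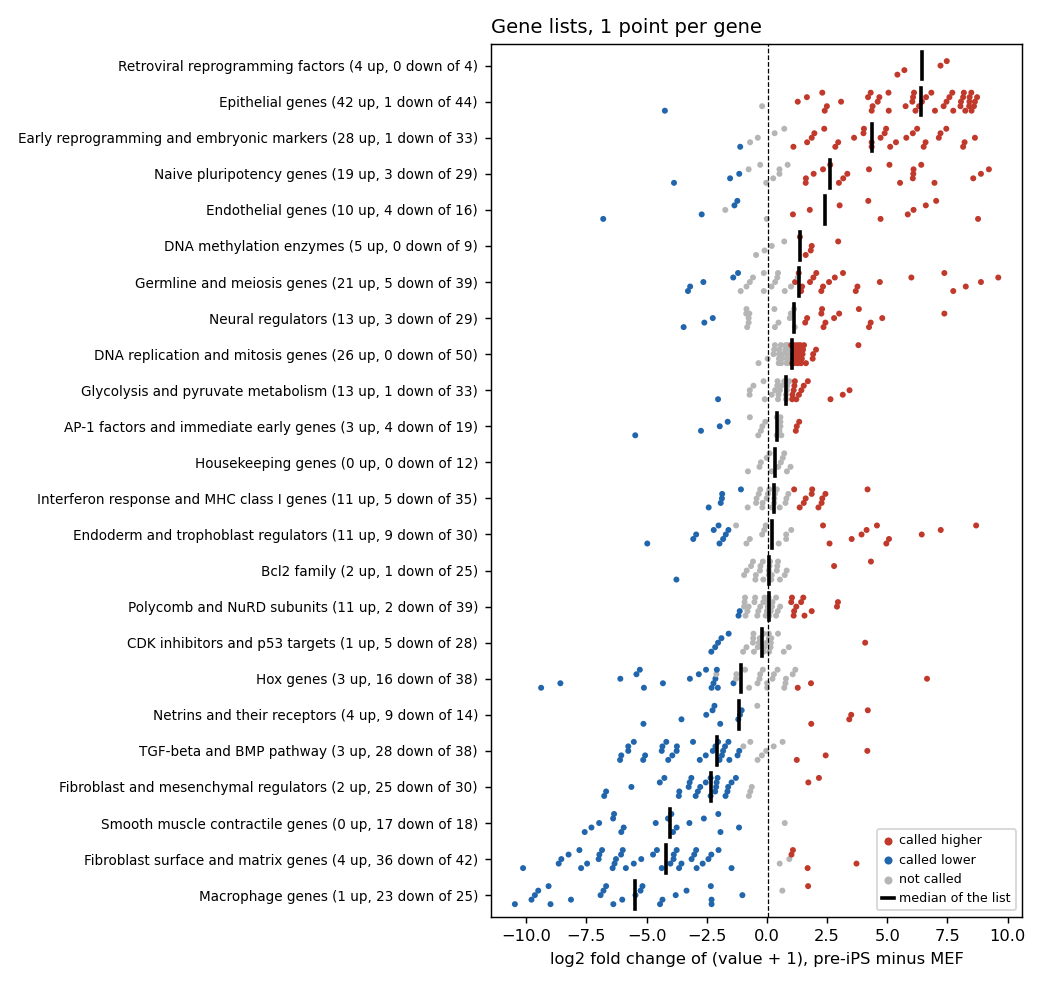
Log2 fold change of (value + 1), pre-iPS minus MEF, for the tested members of 24 gene lists (1 point per gene), sorted by median (black bar), with all genes' median dashed. Red points were called higher, blue lower and grey not called. Epithelial genes (median 6.38) and the 4 viral factors lie to the right, and macrophage (-5.46) and fibroblast matrix genes (-4.19) to the left.

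Genes of apoptosis in the Bcl2 family were mostly not called, with 2 of 25 higher and 1 lower, beside 22.4 and 20.9% of all tested genes. The list's median of 0.08 turned negative under housekeeping scaling and without pre-iPS passage 5. The pro-apoptotic *Bik* had 2.49 and 5.24 in MEF and 118 and 72.0 in pre-iPS, and *Hrk*, also pro-apoptotic, 2.60 and 8.37 and then 28.6 and 53.8. *Casp12*, a caspase counted with this list, fell from 2786 and 2911 to 172 and 253. AP-1 factors, bound to fibroblast enhancers, did not fall as a list, with 3 of 19 called higher and 4 lower and a median of 0.41 that turned to -0.26 without pre-iPS passage 5. Both AP-1 counts were near the shares over all tested genes. *Fosl2* fell from 18658 and 18626 to 3524 and 2203, and *Fos* itself had 2303 and 2171 in MEF and 4465 and 2317 in pre-iPS, so that passage 25 lay next to the MEF values, and was not called.

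Glycolysis genes rose in part, with 13 of 33 called higher and 1 lower (median log2 fold change 0.79), and 7 higher under housekeeping and 20 under total-read scaling. The share called higher over all tested genes was 22.4% as deposited. Under housekeeping and total-read scaling, 3155 and 5427 of all 17075 tested genes were called higher. *Gapdh* and *Pgk1* of this list are also among the housekeeping genes that set the scale, so that scaling is not independent of the list. *Slc2a3*, a glucose transporter of embryonic cells, had 652 and 596 in MEF and 6056 and 5063 in pre-iPS, 8.91-fold higher. *Slc2a1* had 5771 and 5540 and then 60156 and 20622, so the pre-iPS passages differed nearly 3-fold from each other. *Hk2*, the inducible hexokinase, was 2.72-fold higher. Interferon response and MHC class I genes did not move as 1 group, with 11 of 35 called higher and 5 lower, beside 22.4 and 20.9% of all tested genes. *B2m*, the light chain of class I molecules, fell from 25881 and 27236 to 7223 and 7294, while the heavy chain gene *H2-K1* rose from 4109 and 3954 to 12851 and 11859. The class I genes share sequence, so reads may be split among them. *Oas1a*, an enzyme of the antiviral response that also has close paralogs, rose from 44.9 and 43.3 to 889 and 749.9.

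Hox genes, which keep a fibroblast's position along the body, fell in part, with 16 of 38 called lower and 3 higher (median log2 fold change -1.09), and 6 higher under total-read scaling. By comparison, 20.9% of all tested genes were called lower and 22.4% higher. *Hoxd11* had 671 and 657 in MEF and 0 reads in both pre-iPS libraries, at least 223-fold lower against 3 reads per library, and *Hoxd12* at least 129-fold lower. *Hoxc8* fell from 1175 and 1257 to 18.4 and 15.4. *Hoxa9* rose from 454 and 417 to 907 and 1240, and *Hoxb13* from 1 read in MEF to 162 and 132. Thus posterior Hox genes were among both the lower and the higher members.

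Regulators of other lineages were on at moderate values. Of 29 neural regulators tested, of 34 listed, 13 were called higher and 3 lower (median 1.13), and 5 lower under housekeeping scaling. *Sox1*, an early neural factor, had 7.26 and 10.5 in MEF and 1465 and 1774 in pre-iPS, within or just above the iPS range of 544 to 1719. *Pax6* had 43.4 and 34.9 and then 947 and 1283, beside 502 to 1261 in iPS. *Ncam1* fell from 11068 and 11041 to 930.4 and 1082. Of 30 endoderm and trophoblast regulators, 11 were called higher and 9 lower. For both lists the shares over all tested genes were 22.4% higher and 20.9% lower. *Elf5* and *Tfap2c*, trophoblast factors, rose, the former from 1 read in each MEF library to 1039 and 739, the latter from 8.22 and 6.36 to 865 and 581. Both were also on in iPS, at 134 to 434 for *Elf5* and 1327 to 3301 for *Tfap2c*. *Gata6*, the primitive endoderm factor, fell from 547 and 484 to 162 and 176. *Cdx2* had 0 reads in MEF and values of 16.3 and 12.5 in pre-iPS, at least 4.29-fold higher. The median of this list, 0.22, changed sign in 3 alternatives.

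Germline genes rose in number, with 21 of 39 tested called higher and 5 lower (median 1.32), and 8 lower under quantile normalization. Among all tested genes, 22.4% were called higher and 20.9% lower. *Tex19.2* had 0 reads in MEF and values of 874 and 697 in pre-iPS, at least 234-fold higher, and above the iPS range of 42.1 to 116. *Mov10l1*, a helicase of the piRNA pathway, went from 2.37 and 2.12 to 1033 and 958. Some other genes of the germline that iPS cells express were not called higher in pre-iPS. *Mael* had 3.51 and 2.13 in MEF and 3.06 and 1.92 in pre-iPS, against 325 to 1063 in iPS. *Dazl* had 5.77 and 2.16 and then 3.06 and 0.957, against 204 to 2133, and *Ddx4*, a helicase of germ cells, fell 9.19-fold from 156 and 169 in MEF, against 232 to 884 in iPS. *Brdt*, a chromatin reader of the testis, fell from 214 and 190.3 to 84.7 and 90.3, against 119 to 358 in iPS.

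Markers of cell types other than fibroblasts set the MEF cultures apart as well. Of 25 macrophage genes 23 were called lower in pre-iPS and 1 higher (median -5.46), beside 20.9 and 22.4% of all tested genes. *Lyz2*, a lysozyme of macrophages, had 6824 and 6951 in MEF and 5.10 and 2.88 in pre-iPS, and *C1qb*, *C1qc*, *Tyrobp* and *Emr1* had 525 to 885 in MEF and 0 reads in both pre-iPS libraries. *Laptm5*, a lysosomal protein of blood cells, went the other way, at 1457 and 1425 in MEF and 4719 and 4711 in pre-iPS, and *Cd68* was not called. The summed value of 13 macrophage markers was 17204 and 17075 in MEF and 6760 and 5894 in pre-iPS, with *Laptm5* the larger part of the latter. Of 18 smooth muscle contractile genes 17 were called lower (median -4.04), beside 20.9% of all tested genes. *Acta2*, smooth muscle actin, had 142175 and 139451 in MEF and 1563 and 514 in pre-iPS. The summed value of 6 smooth muscle markers was 227022 and 224537 in MEF and 5241 and 1670 in pre-iPS. In such bulk samples, fewer cells of a type and less RNA per cell cannot be told apart, and the part of macrophages and contractile cells in the MEF values was not tested.

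**Figure D4:**
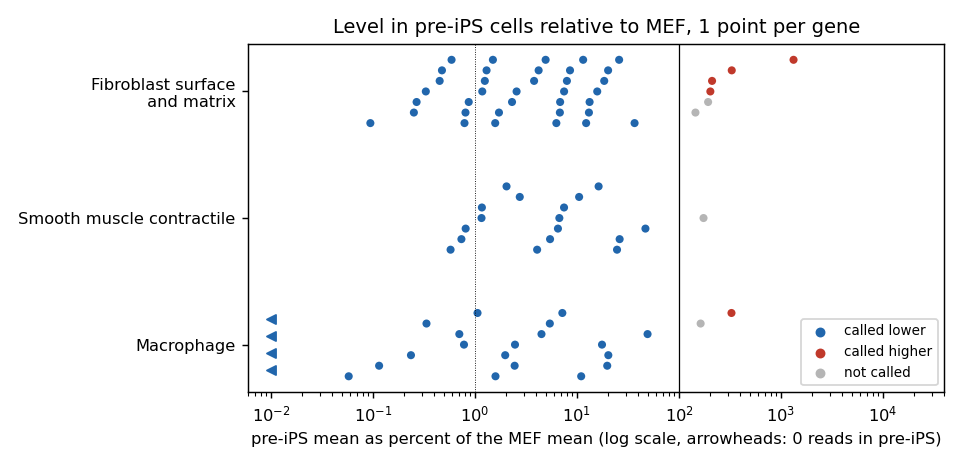
Mean of the pre-iPS libraries as percent of the MEF mean (log axis) for the tested members of 3 lists, with 1 point per gene, solid and dotted lines at 100 and 1%, and arrowheads for the 4 genes with 0 reads in pre-iPS. Most points lie under 10%, and the red points to the right, *Nt5e* among them, are the genes called higher.

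Of 16 endothelial genes tested, 10 were called higher and 4 lower, beside 22.4 and 20.9% of all tested genes. Several of those that rose have known roles elsewhere. *Cldn5* (0.0678 and 3.13 in MEF, 1259 and 669 in pre-iPS) is also a tight junction gene and *Esam* an adhesion molecule. *Tie1* rose from 1.27 and 3.15 to 406 and 395, and *Tek*, the receptor of angiopoietins, from 92.8 and 76.2 to 1975 and 2549. *Robo4*, *Mmrn2* and *Vwf* were called higher too, at log2 fold changes of 5.85, 4.21 and 3.02. Of those called lower, *Erg* fell most, from 977 and 889.6 to 7.14 and 7.68. *Egfl7* fell from 388 and 353 to 158 and 132, and *Plvap* from 128 and 123 to 76.5 and 36.5. The defining markers went in opposite directions at low values, as *Cdh5* rose from 9.40 and 7.42 to 26.5 and 36.5 (3.75-fold) and *Kdr* fell from 118 and 145 to 18.4 and 20.2, and *Emcn* had 0 reads in pre-iPS. The summed value of 6 endothelial markers was 2435 and 3007 in pre-iPS, 240.4 and 242 in MEF and 1148 to 1803 in iPS, and the part of endothelial cells in this was not tested. Fibroblast markers in the pre-iPS libraries bear on feeder or leftover cells. The summed value of 10 such markers was 24136 and 23625 in pre-iPS, within the range of the iPS libraries (20972 to 35966), against 3028099 and 2884899 in MEF, and the part of feeder cells in these remaining reads was not tested.

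The largest changes by size included many genes that are in none of the lists. *Smoc2*, a matricellular protein, had 6976 in both MEF libraries and 1.02 and 5.76 in pre-iPS, a log2 fold change of -10.88 ± 0.51 (limma adjusted p = 3.51e-07). *Aspn* and *Mfap4*, of the matrix, fell from 9860 and 10410 to 9.18 and 2.88 and from 8172 and 7881 to 5.10 and 4.80. *Gldn*, which encodes gliomedin, had 1355 and 1372 in MEF and 0 reads in pre-iPS, at least 459-fold lower. At the other end, *4930550L24Rik* on the X chromosome had 3 reads in MEF and values of 4573 and 2549 in pre-iPS, a ratio of 2109 (95% counting interval 721 to 10229). *Slc38a5*, an amino acid transporter, also X-linked, had 63.0 and 42.5 and then 36832 and 49314, a log2 fold change of 9.66 ± 0.27 (limma adjusted p = 2.81e-08), beside 10324 to 19424 in iPS. *Gcnt3*, an enzyme of mucin glycans, rose from 13.0 and 12.7 to 10081 and 8636, and *Gpx2*, the glutathione peroxidase of gut epithelium, from 1.27 and 3.15 to 2421 and 1657. Chosen by the same rule for libraries that do not overlap were *2610528A11Rik*, *Cd164l2*, *Sptssb*, *Tmprss5*, *Slc5a9* and *Cyp2b23* on the higher side and *Zcchc5*, *Wisp2*, *Col10a1*, *Tmem26* and *Abi3bp* on the lower. Over all tested genes the libraries did not overlap in 45.4% with pre-iPS higher and 42.1% with pre-iPS lower.

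Between the pre-iPS passages, 1114 genes (6.52%) differed more than 2-fold, 406 of them higher and 708 lower at passage 25, against 742 (4.35%) between the MEF passages, with 1 library each and no test. The genes with a pre-iPS mean of at least 100 that were lowest at passage 25 relative to passage 5 included *Actg2* (306 and then 25.9), a smooth muscle actin that MEF express at 6029 and 6031, *Gpnmb* (3027 and 285), a transmembrane glycoprotein, and *Ly6d* (275 and 26.9), a surface protein of keratinocytes. Next to *Unc5c*, those higher at passage 25 included *Trpa1* (42.8 and 160.3), an ion channel, and *Pecam1* (196 and 558), an adhesion molecule also found on naive pluripotent cells.

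Sex-linked genes differed too. *Ddx3y*, *Kdm5d*, *Eif2s3y* and *Uty* of the Y chromosome had 0 to 7 reads each in pre-iPS and 64 to 367 in MEF, and *Xist*, the RNA that coats the inactive X, had 16030 and 22076 in pre-iPS and 52735 and 52989 in MEF. The iPS libraries ran from 0.887 to 1785 in *Ddx3y* and from 144 to 21946 in *Xist*. Genes of the X chromosome with a mean of at least 100 had a median log2 fold change of -0.10, beside -0.03 over all 12753 such genes. For X-linked genes such as *Nr0b1* and *Slc38a5*, a difference in the sex of the cultures and one in cell state cannot be told apart.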

How the data were processed

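Poly(A) RNA of 10 libraries was sequenced by the authors as single reads on an Illumina HiSeq. The submitters' processing notes name CASAVA 1.8.2, FastQC, TopHat2 2.0.8b, HTSeq 0.5.3p9, edgeR and mm10. Their options, and the use of strand, are not given in the sources used here. The values deposited are a normalized signal, edgeR pseudo-counts at a common library size. Whole reads came out of 100% of the values (tolerance 0.01 read).

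Genes that did not reach 10 in 2 libraries were left out. limma 3.58.1 (R 4.3.3, lmFit and eBayes with trend) was fitted to log2(value + 1), which understates folds of low genes, with 1 mean for each of 5 lines over 10 libraries. Scripts were tested on simulated data. Fold changes in words are ratios of group means. Against 0 reads, folds are bounds at a floor of 3 reads per library. Intervals are exact (Clopper-Pearson, 95%) and cover counting error only. Positions are from RefSeq GRCm38.p6, where 99.5% of the symbols were found, 1347 by older names.

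The 24 gene lists, the genes compared and the motif were chosen with earlier results of these data known. Picked for naming were the 12 higher and 12 lower genes of largest change with a group mean of at least 100 and no overlap, chosen members of the lists, up to 3 members of each list in each direction, and all where 5 or fewer moved one way. Not all of the genes picked are printed above, so the exceptions of a list are not shown in full. *Rab25*, *Ap1m2*, *Lsr*, *Krt7*, *Zscan4c*, *Tek*, *Cd68*, *Emr1*, *C1qc*, *Tyrobp*, *Id1*, *Id2* and the genes that differ between passages were named after their values were seen. Alternatives were pseudocounts of 5 and 0.5, no filter, a mean of at least 50, the adjusted p alone, quantile normalization, housekeeping and total-read scaling, a fit of 4 libraries, omission of each library, and edgeR 4.0.16 and DESeq2 1.42.0 on the recovered reads.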

Additional observations from a re-analysis of the deposited data

How the results depend on the processing

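The adjusted p alone, without the fold limit, gave 12062 genes (6219 higher, 5843 lower) in place of 7383. Under the other alternatives 5754 to 8040 genes were called, and the counts called, higher and lower each stayed within 1.5 times of those reported, with edgeR at 7229 and DESeq2 at 7068 called on the recovered reads. Without 1 of the 4 libraries the calls ran from 6969 to 7190, with 3599 to 3686 higher and 3370 to 3504 lower, and a group left with 1 library is then assumed to vary like the others. The share of calls that were higher was 51.7% as deposited, 41.6% under housekeeping scaling and 67.5% under total-read scaling. The number of the 24 lists with a median above 0 was 16, and 13 to 17 over the alternatives (13 to 16 without 1 library). List medians that changed sign were those of Polycomb and NuRD (-0.20) and the Bcl2 family (-0.18) under housekeeping scaling, of CDK inhibitors and p53 targets under quantile normalization (0.08) and total-read scaling (0.22), of endoderm and trophoblast regulators under quantile normalization (-0.16), without MEF passage 2 (-0.11) and without pre-iPS passage 5 (-0.0032), and of AP-1 factors (-0.26) and the Bcl2 family (-0.04) without pre-iPS passage 5. Over the omission of 1 library these 3 lists reached 0.98, 0.56 and 0.14. The cause was not tested. Of 219 called genes among the 266 picked for naming and tested, 195 were called in the same direction in each alternative that tested them. No paired analysis was possible because the MEF passages (2 and 4) and the pre-iPS passages (5 and 25) share no number. Depth does not limit the abundant genes, while genes with a few reads, such as *Dppa3*, *Asz1* and *Stk31*, cross the threshold with the setting.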
